A study of Mus musculus with 10 samples.

Results

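The subunit genes of the ionotropic glutamate, GABA and glycine receptors were examined in mouse spinal cord during experimental autoimmune encephalomyelitis (EAE), an induced autoimmune disease of myelin used to model multiple sclerosis. Members were taken by symbol: the genes of the AMPA (Gria), kainate (Grik), delta (Grid) and NMDA (Grin) receptors, of the GABA-A and GABA rho receptors (Gabr), and of the glycine receptors (Glra and Glrb). This gave 42 of the 21936 genes in the deposited table, 18 of them glutamate receptor genes and 24 GABA or glycine receptor genes. RNA of 10 samples was sequenced, 5 titled Nar and 5 titled EAE, all from wild-type (WT) mouse spinal cord at day 14. By the study's title, Nar stands for naringenin, a citrus flavonoid. Naringenin is entered as the treatment of all 10 samples, and the agent given to the EAE group is therefore unknown here. The labels give no strain, sex, age or immunisation, nor whether each sample is its own animal. The p-values therefore reflect the spread among these samples, part of which may be technical. Cord without EAE was not analysed here.

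These receptors are channels that open when a transmitter binds. Glutamate receptors are assemblies of 4 subunits that pass cations and excite the cell: AMPA receptors carry the fast current, NMDA receptors pass calcium and need glycine or D-serine with glutamate, kainate receptors act at both sides of the synapse, and delta receptors serve mainly as synaptic organisers. GABA-A and glycine receptors are assemblies of 5 subunits that pass chloride and, in adult neurons, inhibit the cell. Glycine is a principal inhibitory transmitter of the spinal cord, and its receptors combine alpha subunits, which bind glycine, with the beta subunit Glrb, which also binds the anchoring protein gephyrin. AMPA receptor genes are also expressed by oligodendrocyte precursors and astrocytes.

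Total counts were 14504726 to 15139706 reads in the Nar samples and 16658798 to 18961501 in the EAE samples, and the mitochondrial share of reads was 6.69 to 7.51% in Nar and 4.62 to 7.01% in EAE. The receptor genes took 36019 to 47554 reads per sample, 0.219 to 0.275% of the total. In bulk RNA, fewer cells of a type and less RNA per cell cannot be told apart. All 12 neuron markers were tested and 0 passed, and their summed level was 10180 to 12150 CPM (reads scaled to the library total) in Nar and 9809 to 12880 in EAE. Of 7 genes of forebrain and cerebellum, 5 averaged under 1 CPM, and of 8 sensory ganglion genes 6 did.

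The most abundant subunit of the cord was Glrb. Its level per transcript length, as the authors' FPKM (fragments scaled to gene length and library total), was 81.3, 85.8, 78.7, 73.1 and 78.0 in EAE 1 to 5 and 80.2, 95.3, 80.7, 75.8 and 81.2 in Nar 1 to 5. Every sample thus held more Glrb than any other receptor subunit, and the groups overlapped. It was followed by the GABA-A subunit Gabra3 at a mean of 34.8 FPKM and the AMPA subunits Gria4 at 27.4 and Gria1 at 25.9. Gabra5, a GABA-A subunit, lay at 17.1, Gria2 at 15.5 and the kainate subunit Grik5 at 15.4 FPKM. This order depends on the gene length used. With the longest transcript of each gene as length, the NMDA subunit Grin1 reached 30.1 FPKM, above Gria1 at 28.3. Levels above 10 FPKM were found in 12 of the 42 genes, 23 lay between 1 and 10, and 7 lay under 1. Between neighbours in the order the ranges over the 10 samples overlapped in 39 of 41 pairs, and Glrb was separated from Gabra3. Such ranges leave out that the subunits were measured in the same samples. Compared within samples, Gabra3 lay above Gria4 and Grin1 above Gria3 in 10 of 10. Among lower subunits the same held for Grin2a above Grik1, Grik1 above Gabrq, Gabrr2 above Gabre and Gabrd above Gabrr1. Some other neighbours were not ordered in this way: Gria4 lay above Gria1 in 6 of 10 samples and Gria2 above Grik5 in 5.

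**Figure D1:**
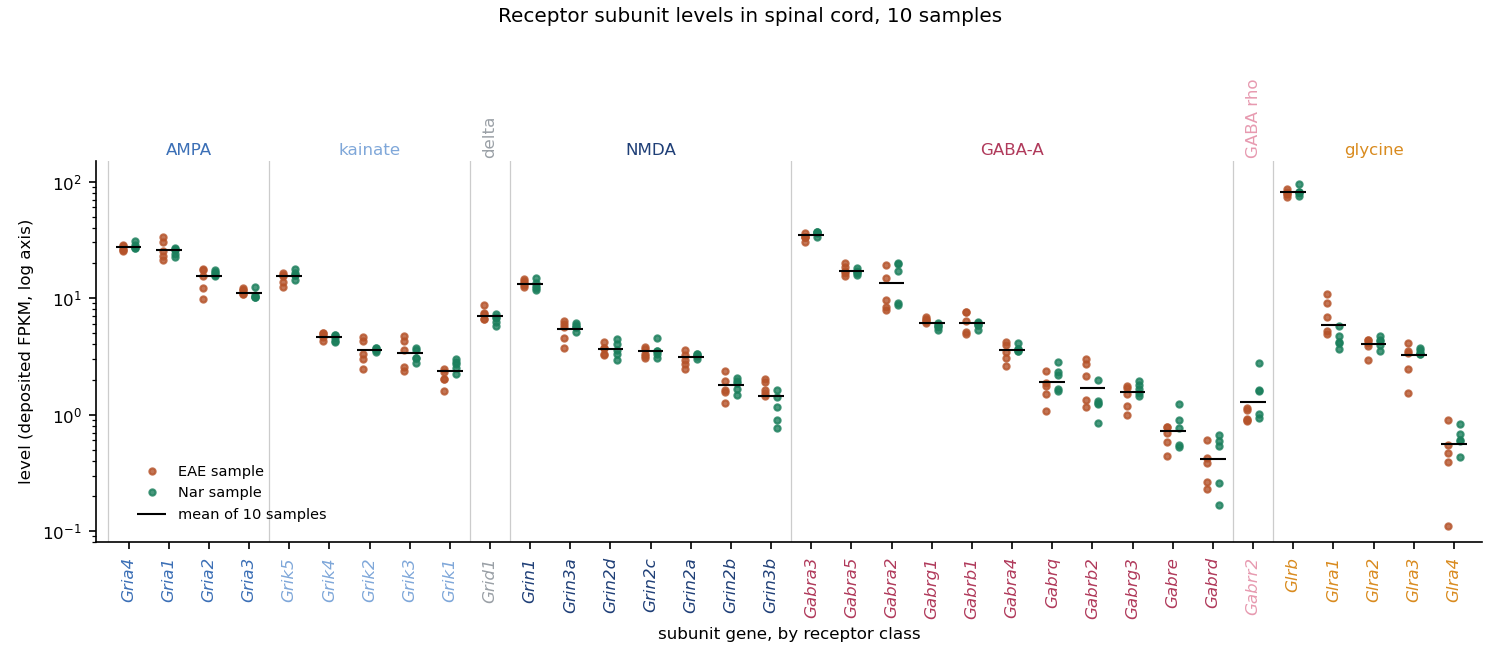
FPKM (log axis) of 34 of the 38 tested subunit genes in each of the 5 EAE and 5 Nar samples (points), with the mean of the 10 samples (line), grouped by receptor class. Glrb stands above the others at 73.1 to 95.3 FPKM, and Gabra2 falls into a lower and a higher set of samples in both groups.

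The 2 most abundant inhibitory subunits differed in the sequence around their RefSeq starts, which is shown for that contrast. RefSeq windows of 300 bases (250 before to 50 after the start, GRCm38.p6) were found for 29 of the 42 genes. Both sequences below read 5′ to 3′ on the gene's strand, with every CpG dinucleotide (the letters CG, the same on both strands) in capitals.
Glrb, chr3:80913611-80913910, minus strand: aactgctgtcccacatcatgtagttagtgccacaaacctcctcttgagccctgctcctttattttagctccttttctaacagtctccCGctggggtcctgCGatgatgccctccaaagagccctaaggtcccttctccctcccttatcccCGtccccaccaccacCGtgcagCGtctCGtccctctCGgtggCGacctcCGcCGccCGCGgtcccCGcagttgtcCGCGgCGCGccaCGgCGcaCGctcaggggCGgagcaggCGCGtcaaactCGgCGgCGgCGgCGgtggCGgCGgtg
Gabra3, chrX:72656870-72657169, minus strand: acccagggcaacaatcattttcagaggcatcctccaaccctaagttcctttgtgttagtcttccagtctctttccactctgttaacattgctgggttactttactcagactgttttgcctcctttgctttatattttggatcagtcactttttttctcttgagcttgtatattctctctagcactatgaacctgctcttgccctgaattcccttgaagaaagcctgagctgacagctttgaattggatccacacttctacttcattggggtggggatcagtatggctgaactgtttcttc
The Glrb window held 30 CpG and the Gabra3 window 0. On this strand a gene starts at its highest coordinate, which is 80913660 for the counted Glrb gene, inside its window. For the counted Gabra3 gene it is 72656848, so the Gabra3 window lies wholly outside that gene. The contrast is thus between RefSeq starts, and for Gabra3 that start is not the one of the counted gene. Of the 29 genes, 11 (37.9%) had at least 20 CpG, against 26.5% of all 32851 windows, and the median was 12 against 7. Each member entered with the first window listed for it, while the 32851 windows were not reduced to 1 per gene. The 2 sides of this comparison were therefore not counted alike. Gabra3 was the 1 member with 0 CpG, which 5.43% of all windows had. Methylation of these windows was not analysed here.

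Among AMPA receptor genes, Gria4 and Gria1 led. Gria4 had 25.3, 26.1, 25.9, 28.0 and 28.5 FPKM in EAE 1 to 5 and 26.8, 31.1, 27.6, 26.7 and 28.4 in Nar 1 to 5. Gria1 had 25.3, 21.4, 23.1, 33.4 and 30.4 FPKM in EAE 1 to 5 and 23.7, 22.5, 26.0, 27.0 and 26.4 in Nar 1 to 5. Gria4 was above Gria1 in 6 of 10 samples, so their order was not settled. Gria2, the subunit whose edited form keeps AMPA receptors from passing calcium, made up 19.3 ± 2.18% of the summed AMPA FPKM (SD, n = 10), against 34.5 ± 2.20% for Gria4, 32.4 ± 2.57% for Gria1 and 13.9 ± 1.31% for Gria3. The deposited length of each of the 42 genes equals the union of its annotated exons (GENCODE M21), 15548 bases for Gria2 where the longest transcript has 10371. With the longest transcript as length Gria2 reached 23.2 FPKM and Gria3 21.0, with Gria4 at 31.8 and Gria1 at 28.3 in the same order.

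Kainate receptors were led by Grik5, a high-affinity subunit that needs a partner from Grik1 to Grik3 to form a channel. Its FPKM was 16.3, 15.5, 13.8, 15.8 and 12.4 in EAE 1 to 5 and 17.8, 14.4, 16.5, 15.7 and 15.7 in Nar 1 to 5. Grik4, the other high-affinity subunit, had 4.24, 4.85, 4.99, 4.97 and 4.59 FPKM in EAE 1 to 5 and 4.27, 4.81, 4.51, 4.17 and 4.84 in Nar 1 to 5. Grik5 took 52.5 ± 3.88% of the summed kainate FPKM, while Grik1, Grik2 and Grik3 each took 8.06 to 12.1%. Of the delta receptors, Grid1 had 7.33, 6.55, 6.57, 8.76 and 7.42 FPKM in EAE 1 to 5 and 5.77, 7.33, 6.71, 6.19 and 6.86 in Nar 1 to 5. EAE 4 was the highest and Nar 1 the lowest, and the groups overlapped.

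Grin1, the obligatory NMDA receptor subunit, had 13.0, 12.5, 13.5, 13.9 and 14.5 FPKM in EAE 1 to 5 and 11.8, 12.7, 13.6, 12.2 and 14.8 in Nar 1 to 5. Second was Grin3a, a glycine-binding subunit that lowers calcium entry, with 5.64, 4.50, 3.74, 6.35 and 6.01 FPKM in EAE 1 to 5 and 5.60, 5.64, 5.88, 5.14 and 6.06 in Nar 1 to 5. The samples EAE 2 and EAE 3 were the lowest for Grin3a. The GluN2 genes, whose products bind glutamate, were close together: Grin2d averaged 3.65, Grin2c 3.50, Grin2a 3.09 and Grin2b 1.78 FPKM. Grin1 took 41.3 ± 2.08% of the summed NMDA FPKM. Of the Grin1 exon bases, 13.5% are shared with its antisense gene Grin1os, and 32.1% of those of Grin3b with Tmem259. No strand-marking step is named for the libraries, so reads from these shared bases could not be told apart.

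GABA-A receptor genes summed to 130 ± 9.92 FPKM in EAE and 134 ± 7.96 in Nar (SD over 5 samples). Gabra3 had 33.3, 33.2, 30.1, 33.7 and 36.4 FPKM in EAE 1 to 5 and 36.9, 37.2, 36.6, 33.6 and 36.5 in Nar 1 to 5. Among the alpha subunits, which take part in binding GABA, Gabra5 averaged 17.1, Gabra2 13.4 and Gabra4 3.58 FPKM. The beta subunit Gabrb1 averaged 6.10 FPKM and Gabrb2 1.70, and the gamma subunit Gabrg1 6.11 and Gabrg3 1.56. Gabrd, a subunit of receptors outside synapses, lay at 0.412 FPKM.

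The remaining alpha subunit, Gabra6, known from cerebellar granule cells, had 0 to 7 reads per sample, and Gabrp 0 to 1. Of the rho subunits, known from the retina, Gabrr2 had 1.14, 0.902, 0.872, 0.920 and 1.10 FPKM in EAE 1 to 5 and 2.77, 1.60, 1.63, 1.02 and 0.943 in Nar 1 to 5. Gabrr1 had 0, 0.0692, 0.0487, 0.0242 and 0.0509 FPKM in EAE 1 to 5 and 0.235, 0, 0, 0 and 0.0299 in Nar 1 to 5, from 0 to 8 reads, and Gabrr3 had 0 to 4 reads. These 4 genes held 48 reads in all 10 samples together and did not pass the filter on low counts.

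Next to Glrb, the glycine receptor alpha subunits were low. Glra1, the main adult alpha subunit of cord and brainstem, had 5.22, 4.92, 6.82, 10.8 and 9.10 FPKM in EAE 1 to 5 and 4.08, 5.77, 4.68, 3.69 and 4.22 in Nar 1 to 5. EAE 4 and EAE 5 were the highest. Glra2, the alpha subunit that prevails before birth, averaged 4.05 FPKM, Glra3, an alpha subunit of the dorsal horn, 3.24, and Glra4 0.555. The 4 alpha genes together reached 13.8 ± 2.66 FPKM (SD, n = 10), against 81.0 ± 6.07 for Glrb.

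The samples titled Nar were compared with those titled EAE, the contrast that the study's title and the sample titles give. No receptor subunit gene passed the test: of 38 tested, 0 were called by edgeR's quasi-likelihood test at an adjusted p of 0.05 (Benjamini-Hochberg over all 14595 tested genes), against 3.93% of all genes (574), 1.58% higher and 2.36% lower in Nar. At an unadjusted p under 0.05 there were 7 of the 38 (18.4%), against 22.5% of all genes. Fold changes were above 0 in 25 of 38, with a median log2 fold change (Nar minus EAE) of 0.09, against 53.4% and 0.02 over all genes. The CPM of the groups overlapped in all 38 genes, while 5.79% of all genes did not overlap, 2.67% with Nar above and 3.12% with Nar below. By other tools the count was 0 with limma-voom and 2 (Grik1 and Glra1) with the DESeq2 Wald test, which called 1314 genes in all.

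Summed by receptor class, the levels of the groups lay close together. AMPA receptor genes reached 79.5 ± 9.84 FPKM in EAE and 80.3 ± 2.60 in Nar, and NMDA receptor genes 28.8 to 35.5 and 29.0 to 34.2 FPKM. For kainate receptor genes the sums were 28.6 ± 2.49 FPKM in EAE and 30.1 ± 1.49 in Nar. Glycine receptor genes summed to 94.2 ± 2.95 FPKM in EAE and 95.4 ± 7.98 in Nar, and rho genes to 1.04 ± 0.116 and 1.69 ± 0.806, with Nar 1 the highest. In each of these classes the ranges of the groups overlapped, and the sums were not tested. All 18 glutamate receptor genes together reached 149 ± 15.3 FPKM in EAE, from 134 to 168, and 151 ± 4.58 in Nar, from 145 to 156, so the EAE samples were the more spread.

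How large a difference these data allow follows from the intervals. The 95% interval of the fold change lay within 1.5-fold either way in 27 of the 38 genes (71.1%), against 73.4% of all genes. Within 2-fold it lay in 32 of the 38, against 13046 of all 14595 tested genes. All 4 AMPA genes, 4 of 5 kainate genes and 6 of 7 NMDA genes were within 1.5-fold, as were 9 of 14 GABA-A genes and 2 of 5 glycine receptor genes. The median log2 fold change was 0.02 for AMPA, 0.07 for kainate, 0.08 for NMDA, 0.13 for GABA-A and 0.12 for glycine receptor genes. For the obligatory subunit Grin1 the interval was −0.16 to 0.12 and for Glrb −0.07 to 0.24. For Gabrb2, a beta subunit, it was −1.24 to 0.00, for Gabrd −0.59 to 1.08 and for Glra4 −0.44 to 1.26. These intervals reach past 2-fold in 1 direction each.

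**Figure D2:**
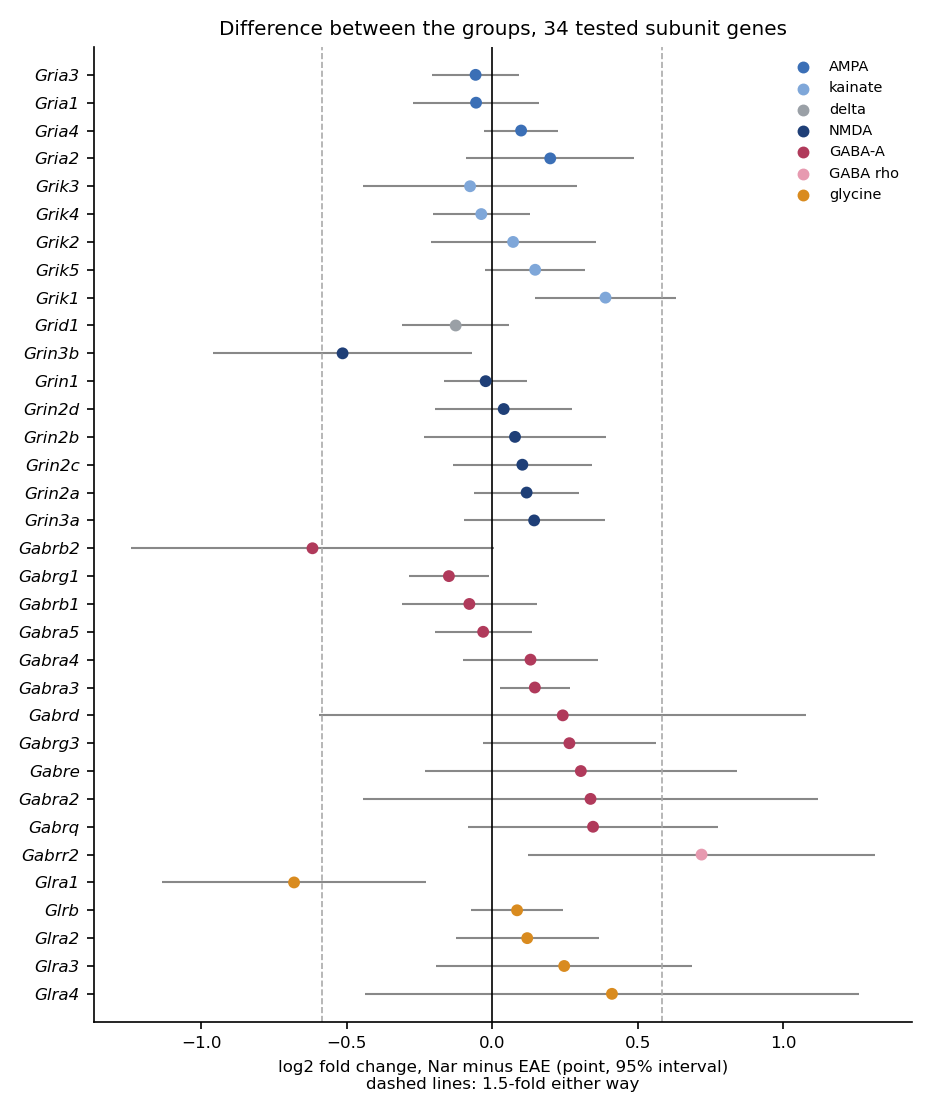
Log2 fold change (Nar minus EAE, edgeR) with its 95% interval for 34 of the 38 tested subunit genes, coloured by class; dashed lines mark 1.5-fold either way. Most intervals lie between the dashed lines, and Glra1, Gabrb2 and Gabrr2 are the points beyond them.

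The 4 genes of smallest p were Grik1, Glra1, Gabra3 and Gabrr2. Grik1, a kainate subunit of sensory pathways, had 13.4, 13.7, 11.0, 14.9 and 16.2 CPM in EAE 1 to 5 and 18.5, 15.4, 20.6, 17.1 and 19.1 in Nar 1 to 5. EAE 5 lay above Nar 2, so the groups overlapped by that pair. The log2 fold change was 0.39 (SE 0.113, edgeR adjusted p = 0.0693). Among the fits with 1 sample left out it passed only when Nar 4 (0.41, edgeR adjusted p = 0.0469) or Nar 2 (0.43, edgeR adjusted p = 0.0494) was left out. The DESeq2 Wald test also called it (adjusted p = 0.0279).

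Glra1 had 12.4, 11.9, 16.9, 25.1 and 21.5 CPM in EAE 1 to 5 and 9.94, 14.2, 11.4, 8.97 and 10.2 in Nar 1 to 5. Nar 2 lay above EAE 1 and EAE 2. The log2 fold change was −0.68 (SE 0.209, edgeR adjusted p = 0.0891), −0.80 without EAE 2 (edgeR adjusted p = 0.0484) and −0.31 with the mitochondrial share of each sample in the model (0.612). The DESeq2 Wald test called it (adjusted p = 0.0205). EAE 4 and EAE 5, highest for Glra1, had the lowest mitochondrial shares (4.62 and 5.19%). They also had the lowest summed neuron markers of the EAE group. Single neuron markers went both ways there: of all samples, Snap25 was lowest (2577 and 2611 CPM) and Map2 highest (935 and 950 CPM). Without EAE 4 the log2 fold change of Glra1 was −0.52 (edgeR adjusted p = 0.162), and without EAE 5 it was −0.60 (edgeR adjusted p = 0.180).

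Gabra3 had 129, 131, 121, 127 and 140 CPM in EAE 1 to 5 and 146, 150, 145, 133 and 144 in Nar 1 to 5. EAE 5 exceeded Nar 4, and the other 8 samples were separated by group. Its log2 fold change was 0.15 (SE 0.0557, edgeR adjusted p = 0.147), a difference of 143 ± 6.36 against 130 ± 6.84 CPM. Gabrr2 had 2.37, 1.91, 1.88, 1.86 and 2.28 CPM in EAE 1 to 5 and 5.88, 3.46, 3.47, 2.16 and 1.99 in Nar 1 to 5. Nar 1 alone was the highest by a wide margin, and the log2 fold change of 0.72 (SE 0.277, edgeR adjusted p = 0.152) became 0.41 without it (edgeR adjusted p = 0.400) and 0.46 with the mitochondrial share in the model (0.643). These are 29 to 87 reads per sample.

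**Figure D3:**
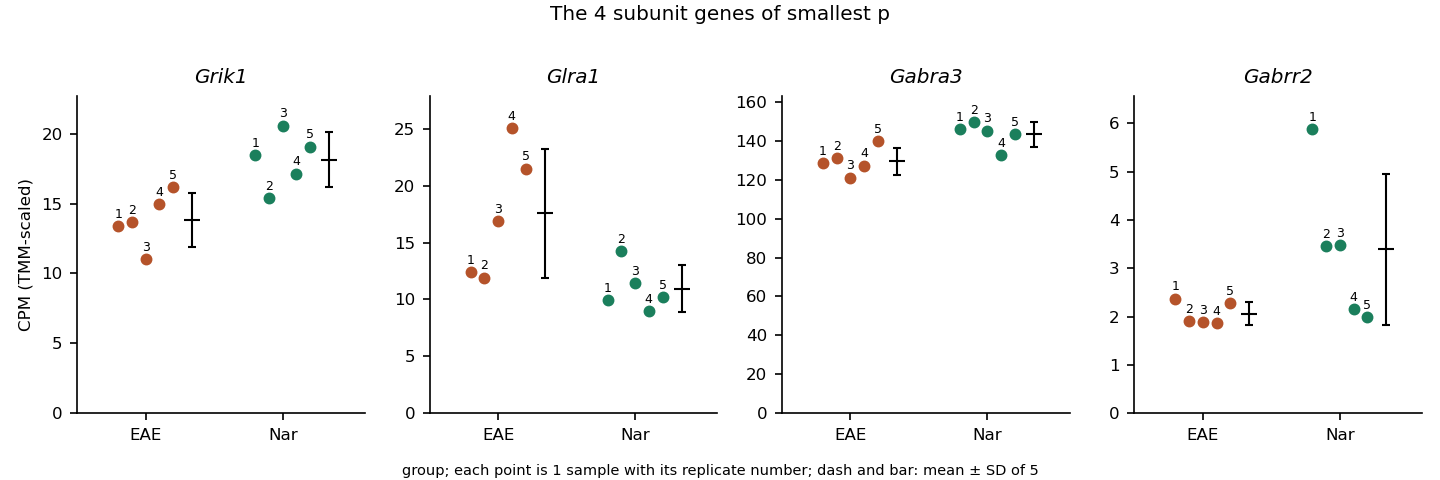
CPM of Grik1, Glra1, Gabra3 and Gabrr2 in each sample (points with replicate numbers), with the mean ± SD of the 5 samples of each group; axes start at 0. In each gene at least 1 sample of a group lies within the range of the other, such as EAE 5 above Nar 2 for Grik1.

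An unadjusted p under 0.05 was also found for Grin3b, a glycine-binding NMDA subunit of motor neurons, with a log2 fold change of −0.51, and for Gabrg1 with −0.15 (edgeR adjusted p 0.169 and 0.192). Grin3b had 38 to 113 reads per sample and shares exon bases with Tmem259 as given above.

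Gabra2 varied most among the well-counted subunits, within both groups. It had 72.0, 114, 65.2, 58.6 and 144 CPM in EAE 1 to 5 and 69.2, 155, 67.2, 131 and 151 in Nar 1 to 5. Thus 5 samples (EAE 1, 3 and 4 and Nar 1 and 3) lay at 58.6 to 72.0 CPM and 5 (EAE 2 and 5 and Nar 2, 4 and 5) at 114 to 155, with no value between. With 1007 to 2532 reads per sample, counting error is far smaller than this gap. Its within-group SD of log2 CPM was 0.582, rank 94 from the top among 10555 genes of at least 10 CPM, whose median was 0.133. The group difference (log2 fold change 0.34, SE 0.346, edgeR adjusted p = 0.599) was smaller than this spread, and was 0.81 (edgeR adjusted p = 0.485) with the mitochondrial share in the model. The labels give neither strain nor genotype at this gene, so whether the 2 sets of samples differ in either was not tested, and the group difference depends on how many samples of each set a group holds.

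The gene (ENSMUSG00000000560) lies on chromosome 5 from 70957597 to 71095849 (GRCm38, whole gene with exons and introns), in a cluster with Gabrg1, Gabra4 and Gabrb1. None of its exon bases is shared with another annotated gene. Over the 10 samples its highest CPM was 2.65 times its lowest, against 1.27 for Gabrg1, 1.55 for Gabra4 and 1.47 for Gabrb1. Gabrg1 had 46.2 to 53.3 CPM in EAE and 41.9 to 48.3 in Nar.

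**Figure D4:**
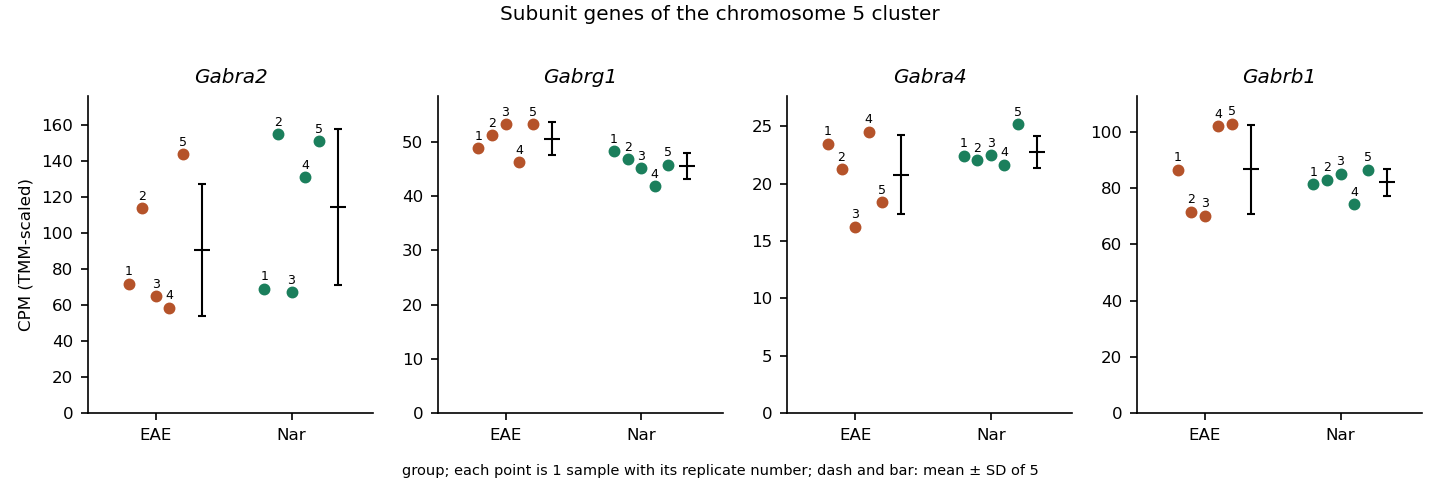
CPM of the 4 subunit genes of the chromosome 5 cluster in each sample (points with replicate numbers), with the mean ± SD of the 5 samples of each group; axes start at 0. Gabra2 has 5 samples at 58.6 to 72.0 and 5 at 114 to 155 CPM, with both groups in each set, while the other 3 genes span less.

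The GABA-A cluster on chromosome X held genes of unlike levels: Gabra3 (34.8 FPKM) stood between Gabre (0.730) and Gabrq (1.91). Gabrb2 was the second most variable well-counted subunit (rank 146 of 10555), with 13.4, 8.48, 7.64, 18.5 and 17.1 CPM in EAE 1 to 5 and 5.41, 12.8, 8.01, 8.37 and 7.82 in Nar 1 to 5. Its high samples were EAE 4, EAE 5 and EAE 1, and its difference of −0.62 on the log2 scale (edgeR adjusted p = 0.224) turned to 0.26 with the mitochondrial share in the model (0.634).

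Sample EAE 3 was the lowest of the 10 for 15 of the 38 tested subunits, more than any other sample (0 to 4). The same count was not made over all tested genes, so whether this is particular to the subunits is unknown. Gria2 had 239, 190, 155, 262 and 272 CPM in EAE 1 to 5 and 247, 266, 260, 241 and 270 in Nar 1 to 5, with EAE 3 and EAE 2 low. Glra3 had 30.4, 23.0, 14.4, 31.3 and 37.3 CPM in EAE 1 to 5 and 30.8, 31.9, 33.6, 31.0 and 34.6 in Nar 1 to 5, with the same 2 samples low. Without EAE 3 the log2 fold change fell from 0.20 to 0.09 for Gria2, from 0.25 to 0.08 for Glra3 and from 0.14 to 0.05 for Grin3a, and 0 members were called. EAE 3 also had the highest mitochondrial share of its group (7.01%) and the highest summed neuron markers of all samples (12880 CPM). Of these markers, Nefl, Nefm and Nefh were highest in EAE 3 (1772, 3474 and 1640 CPM). Syt1, by contrast, was the lowest of all samples there (130 CPM) and Map2 the lowest of the EAE group (775 CPM). The sensory ganglion sum was also highest in EAE 3 (134 CPM), nearly all of it Calca (131 CPM), which motor neurons express as well. With the mitochondrial share in the model, 2 members were called, Gria2 (log2 fold change 0.64, edgeR adjusted p = 0.0252) and Grin3a (0.50, edgeR adjusted p = 0.0439). Glra3 moved furthest of these 3, to 0.89 (edgeR adjusted p = 0.0514), just short of the threshold. That model called 197 genes in all, and the mitochondrial share itself differed between the groups.

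Proteins that accompany the receptors gave a few calls, to be read against all tested genes, of which 1.58% rose, 2.36% fell and the median log2 fold change was 0.02. Of 16 auxiliary AMPA receptor subunits, all tested, 2 rose in Nar and 0 fell (median log2 fold change 0.20). Cacng4, a TARP that carries AMPA receptors to the membrane and is also made by oligodendrocyte precursors, had 30.9, 27.4, 29.6, 28.5 and 33.0 CPM in EAE 1 to 5 and 41.7, 31.7, 42.3, 41.7 and 43.8 in Nar 1 to 5. Only Nar 2 lay within the EAE range (log2 fold change 0.43, SE 0.0910, edgeR adjusted p = 0.0210). Shisa7, an auxiliary protein described at GABA-A as well as AMPA receptors, rose by 0.47 (SE 0.119, edgeR adjusted p = 0.0443), from 29.8 ± 5.47 to 41.2 ± 4.21 CPM.

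Of 8 kainate auxiliary subunits and delta receptor partners, 1 rose and 0 fell (median 0.04). It was Cbln1, the secreted ligand that links delta receptors to neurexins, with 32.8, 33.8, 32.7, 36.1 and 34.4 CPM in EAE 1 to 5 and 45.3, 38.1, 47.7, 42.8 and 58.1 in Nar 1 to 5. All Nar samples lay above all EAE samples (log2 fold change 0.45, SE 0.0959, edgeR adjusted p = 0.0215). For the delta receptor gene Grid1 the difference was −0.13 on the log2 scale (edgeR adjusted p = 0.401).

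Of 22 excitatory scaffold genes, 1 rose and 0 fell (median 0.13): Nlgn3, a postsynaptic adhesion protein, which glia express too, by 0.27 on the log2 scale (SE 0.0695, edgeR adjusted p = 0.0463), from 34.5 ± 1.97 to 41.6 ± 2.91 CPM with no overlap. Of 14 genes listed as inhibitory scaffold and trafficking genes, 1 rose and 1 fell (median 0.03). Trak2, a mitochondrial and receptor trafficking adaptor, rose by 0.35 (SE 0.0749, edgeR adjusted p = 0.0221). Sdc4 fell by 0.44 (SE 0.0785, edgeR adjusted p = 0.00946). Sdc4 is a cell surface proteoglycan that is also abundant in astrocytes, so its fall cannot be assigned to inhibitory synapses. Of 5 chloride transporter genes 0 passed (median −0.03). Slc12a4, a potassium-chloride exporter of many cell types, had the smallest p (log2 fold change −0.28, edgeR adjusted p = 0.0743). It was called when Nar 4 was left out (edgeR adjusted p = 0.00736) and by DESeq2 (0.0278). Slc12a5, the neuronal exporter that sets the chloride gradient for GABA and glycine, averaged 535 ± 37.4 CPM in EAE and 523 ± 31.0 in Nar (edgeR log2 fold change −0.03, adjusted p = 0.800). The calls of Cacng4, Cbln1 and Trak2 each ended without Nar 1, 3 or 5, that of Cbln1 also without EAE 1 and that of Trak2 also without EAE 5 (edgeR adjusted p 0.0516 to 0.0871). Shisa7 and Nlgn3 each lost their call without any 1 of 7 of the 10 samples (0.0501 to 0.143). With the mitochondrial share in the model the calls of Cacng4, Cbln1, Nlgn3, Trak2 and Sdc4 ended (edgeR adjusted p 0.0706 to 0.140). Their log2 fold changes there were 0.41, 0.52, 0.31, 0.32 and −0.39, near those above. Shisa7 kept its call in that model, with a larger log2 fold change of 0.77 (edgeR adjusted p = 0.0252).

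Several marker lists of other cells held called genes, where 3.93% of all tested genes were called. Summed oligodendrocyte markers (11 of 11 tested, 5 higher) were 32880 to 39620 CPM in Nar and 24940 to 34130 in EAE, astrocyte markers (10 of 10 tested, 5 lower) 3787 to 4157 and 4448 to 5268, and microglia and macrophage markers (10 of 10 tested, 1 lower) 308 to 920 and 763 to 944. Oligodendrocyte precursor markers (8 of 8 tested, 1 higher) were 489 to 540 CPM in Nar and 489 to 583 in EAE. T cell markers (5 of 9 tested, 1 lower) were 1.85 to 10.5 and 6.84 to 18.0 CPM, and fibroblast and meningeal markers (7 of 8 tested, 5 lower) 80.5 to 115 and 156 to 185. Schwann cell markers (5 of 7 tested, Pmp2 at 0) and skeletal muscle markers (4 of 8 tested) had 0 calls, at 167 to 184 and 161 to 187 CPM and at 123 to 140 and 83.0 to 131 CPM. In the microglia, T cell and meningeal sums Nar 4 was the highest Nar sample. The part of cell makeup in the calls of Cacng4, Shisa7, Cbln1, Nlgn3, Trak2 and Sdc4 was not tested.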

How the data were processed

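RNA of 10 spinal cord samples was captured with poly-T beads and sequenced, per the labels' protocols. The submitters' processing notes name cutadapt and the aligner HISAT2 2.0.5. Deposited by the authors were unnormalised read counts and FPKM values per gene (10 columns of each, 0 further sample columns), and the counter and annotation release behind them is not given in the sources used here. Of 153986 deposited FPKM values above 0.1, 100% lay within 1% of count per kilobase of the deposited length and per counted reads of the library, on the FPKM scale. The counts of members cover all of them, and 4 of the tested members are not reported here singly. All 42 members have the start and end of GENCODE M21 (GRCm38).

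Samples were grouped by title, since the treatment field is the same for all. The members and gene lists were chosen with earlier results of these data known. The test of the counts was that of edgeR 4.0.16, run in R 4.3.3 (filterByExpr, leaving 14595 genes, TMM factors, robust glmQLFit, glmQLFTest), coded Nar minus EAE, with two-sided p-values, Benjamini-Hochberg adjusted over every gene tested, and a threshold of 0.05. A standard error is |log2 fold change| over the root of F, and 95% intervals use the test's degrees of freedom. CPM use TMM-scaled totals, and the within-group SD is of log2 CPM with a prior count of 2. Levels between genes were compared in FPKM, with no test. Values per sample are printed for members past the threshold, the 2 highest of each class by FPKM and the 4 of smallest p. Gabra2, Gabrb2, Gria2 and Glra3, and the members of unadjusted p under 0.05, were singled out after their values were seen. Of each companion list the calls, or the smallest p, are named, and Slc12a5 and Grid1 were added beside them. The fit was tested on simulated data. Alternatives included the DESeq2 1.42.0 Wald test, limma 3.58.1 (voom, and trend on log2 FPKM), other factors, filters, a replicate block, the mitochondrial share as covariate and each sample left out.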

Additional observations from a re-analysis of the deposited data

Results flagged for a closer look

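In 3 of 68 groups of 5 samples, 1 sample stood apart from the other 4 by Dixon's test on log2 CPM. Chance flags about 1 in 20 groups. In the Nar group, Nar 2 was the highest for Gria3 (126 CPM, the others 101 to 104) and for Glrb (454 CPM, the others 356 to 380). Nar 5 was the highest for Gabra4 (25.2 CPM, the others 21.7 to 22.5).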

How the results depend on the processing

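Without single samples, the count of all genes called ran from 161 (without Nar 1) to 1486 (without Nar 4), against 574 with all samples. Nar 4 was the Nar sample with the highest microglia, T cell and meningeal marker sums and the lowest oligodendrocyte sum. Whether this bears on the count was not tested. The count of receptor subunit genes ran from 0 to 1. The 1 was Grik1 without Nar 2 or without Nar 4, and Glra1 without EAE 2. The DESeq2 Wald test called 1314 genes and 2 subunits, limma-voom 881 genes and 0 subunits, and the model with the mitochondrial share 197 genes and 2 subunits. The other alternatives, namely DESeq2 size factors, upper quartile factors, both filters, the replicate block and log2 FPKM with either pseudocount or no filter, called 526 to 710 genes and 0 subunits. With the replicate block 636 genes were called, and of the calls named above only that of Nlgn3 ended (edgeR adjusted p = 0.0715). The call of Nlgn3 also ended with upper quartile factors (0.0578), without a filter (0.0591) and in the limma fits of log2 FPKM (0.0962 to 0.111), and that of Shisa7 with upper quartile factors (0.0523) and in the same limma fits (0.0698 to 0.0999). In limma on log2 FPKM without a filter the calls of Cacng4, Cbln1 and Trak2 ended as well (0.0536, 0.0582 and 0.0589). The replicate numbers did not pair the samples: deviations of same-numbered samples correlated at −0.23 to 0.16 and no number was its own best match. Of the subunit fold changes followed here, that of Gabrb2 changed sign, to 0.26 with the mitochondrial share in the model, and the cause was not tested. By mean level, the order of the 2 highest AMPA, kainate, NMDA and glycine receptor subunits held under TPM and without any single sample. For AMPA this does not settle the order, since Gria4 was above Gria1 in 6 of 10 samples and their means had a ratio of 1.06. The GABA rho class gave no ratio, since Gabrr1 had 0 reads in some samples. An alternative chosen after seeing the data took the longest transcript as length. The leading subunit of the AMPA, kainate, NMDA and glycine classes then stayed the same, but Grik2 (5.02 FPKM) passed Grik4 (4.68) as the second kainate subunit. Between classes the order moved too: Grin1 went from 13.25 to 30.1 FPKM and passed Gria1 (28.3). The ratio of Grik5 to Grik4 went from 3.33 to 4.18, Grin1 to Grin3a from 2.43 to 3.36 and Glrb to Glra1 from 13.7 to 20.8. Depth limits the low subunits: Gabrd had 7 to 31 reads per sample and Glra4 4 to 30.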
